A study of Mus musculus with 14 samples.

Results

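The cytosolic heat shock proteins described here are 10 mouse genes, taken by symbol from a table of 24015 gene symbols: the transcription factor gene Hsf1, the Hsp70 genes Hspa1a, Hspa1b and Hspa8, the Hsp110 gene Hsph1, the Hsp90 genes Hsp90aa1 and Hsp90ab1, the J-domain genes Dnaja1 and Dnajb1, and the small heat shock gene Hspb1. All 10 symbols were in the table and all 10 passed the filter on low counts. RNA from mouse embryonic fibroblasts, connective-tissue cells grown from the embryo, had been sequenced in 14 libraries to ask how the sirtuin SirT7 bears on the response to glucose starvation. Every library came from strain 129s2, embryos of day 14.5 and passages 3 to 4, and the cells had been kept for 18 hours in the stated medium. There are 4 wild-type libraries from normal medium (WT-NT) and 3 from glucose-free medium (WT-GS), and likewise 4 (KO-NT) and 3 (KO-GS) from SirT7-/- cells. The labels do not say how the SirT7 allele was disrupted, or whether replicates are separate embryos or cultures, so the p-values below measure only the spread between these samples.

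HSF1 is the main transcription factor of the heat shock response. In unstressed cells chaperones hold it inactive, and when unfolded protein accumulates in the cytosol it binds heat shock elements, inverted repeats of the letters GAA, and switches on chaperone genes. Hspa1a and Hspa1b encode the inducible Hsp70, whereas Hspa8 encodes Hsc70, the Hsp70 that cells make without stress. J-domain proteins bring unfolded clients to Hsp70, Hsp110 proteins exchange its nucleotide, Hsp90 matures kinases and hormone receptors, and small heat shock proteins hold unfolded protein without using ATP. The endoplasmic reticulum has its own Hsp70 and Hsp90, encoded by Hspa5 and Hsp90b1, which answer to the unfolded protein response of that compartment.

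Library totals ran from 59788270 to 91607861 counts. Sirt7 was at 16.9 to 23.1 CPM, counts scaled to the library total, in the 7 wild-type libraries and at 0.301 to 1.41 CPM in the 7 SirT7-/- libraries, with no overlap. For the medium, 2 libraries went against their labels. A scale was built from 5155 genes that starvation changed in wild-type libraries fitted by themselves, without the 10 heat shock genes, and runs from 0 at the WT-NT mean to 1 at the WT-GS mean. On it KO-NT 1 to 3 had values of -0.0126 to 0.0631, and KO-GS 1 and 2 had 0.868 and 0.902. The library labelled KO-NT 4 was among the starved ones at 0.848, and that labelled KO-GS 3 was nearer to the unstarved ones at 0.187. Groups are used as labelled below, and results that rest on these 2 libraries are given with and without them. Fibroblast markers were present in every library, with the summed CPM of 10 markers at 34960.4 to 43484 in WT-NT, 13002 to 14324 in WT-GS, 17079 to 43224 in KO-NT and 12164 to 32979 in KO-GS.

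The sequences just upstream of 4 of the genes are shown first, since the heat shock element is the letter pattern through which HSF1 acts. The window is the 250 bases before an annotated start, from RefSeq on GRCm38.p6, a later build than the mm9 build the submitters name, so no position is carried over between them. RefSeq entries were found for 6 of the 10 genes (Hspa1a, Hspa1b, Dnaja1, Dnajb1, Hspb1 and Hsph1). The search was for the 2-unit patterns GAANNTTC and TTCNNGAA, each of which reads the same on both strands, and for 3-unit patterns in which GAA and TTC alternate, each 2 bases apart, starting with either, on both strands. A 3-unit match contains both 2-unit patterns. Capitals mark a 2-unit match, and the strand given is that of the gene. Each of the 4 windows printed holds a match, and windows without one are not printed.
Hspa1a, chr17:34972157-34972406, minus strand: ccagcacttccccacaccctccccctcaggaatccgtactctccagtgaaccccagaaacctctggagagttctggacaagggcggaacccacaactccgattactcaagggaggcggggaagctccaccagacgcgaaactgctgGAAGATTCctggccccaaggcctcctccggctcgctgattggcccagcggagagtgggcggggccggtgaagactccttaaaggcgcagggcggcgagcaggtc
Hspa1b, chr17:34959239-34959488, minus strand: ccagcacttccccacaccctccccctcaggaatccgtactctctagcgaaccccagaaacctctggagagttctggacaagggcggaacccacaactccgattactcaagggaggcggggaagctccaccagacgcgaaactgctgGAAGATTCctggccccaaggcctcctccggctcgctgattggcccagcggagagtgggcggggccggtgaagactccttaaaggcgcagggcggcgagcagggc
Dnaja1, chr4:40722218-40722467, plus strand: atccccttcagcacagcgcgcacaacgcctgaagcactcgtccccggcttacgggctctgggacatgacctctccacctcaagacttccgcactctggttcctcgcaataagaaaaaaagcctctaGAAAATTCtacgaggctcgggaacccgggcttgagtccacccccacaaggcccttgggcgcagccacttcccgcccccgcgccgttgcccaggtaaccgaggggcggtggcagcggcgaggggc
Hsph1, chr5:149636337-149636586, minus strand: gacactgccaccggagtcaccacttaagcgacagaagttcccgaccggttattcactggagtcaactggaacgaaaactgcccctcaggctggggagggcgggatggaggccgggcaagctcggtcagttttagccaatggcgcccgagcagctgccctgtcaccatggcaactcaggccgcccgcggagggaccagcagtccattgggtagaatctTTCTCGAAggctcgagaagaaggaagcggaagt

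The windows of Hspa1a and Hspa1b carried the same match, GAAGATTC, 104 bases before the start. They differed at 3 of 250 positions, C44T, T47C and T249G, counted from the 5′ end of the window with the Hspa1a base first. Dnaja1 carried GAAAATTC 124 bases before the first of its annotated starts and Hsph1 carried TTCTCGAA 33 bases before its own. Hspb1, whose window is not printed, had both GAAGTTTC at 117 bases and GAACCTTC at 97 bases before the start. Dnajb1 had no match in either of its windows, but the window of its second start lay mostly within exons of the gene (245 of 250 bases). Counted by window, 6 of the 10 windows of the 6 genes held a 2-unit match, among 32851 windows of the same length over all annotated starts of which 12.8% did. The 6 are not independent, since the windows of Hspa1a and Hspa1b are near-copies and those at the pair of Hsph1 starts overlap. No window of these genes held a 3-unit pattern, which 0.466% of all windows did. These matches describe letters only and show no binding.

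The coding sequences of Hspa1a and Hspa1b, 1926 and 1929 bases long, were 99.4% identical, with 8 mismatched bases. Reads from either gene could therefore have been assigned to the other when the authors' counts were made, and the levels of these genes taken one by one are uncertain. The ratio of Hspa1b to Hspa1a stayed between 1.44 and 2.46 across the 14 libraries. Hspa8 is more distant, at 74.1% identity to Hspa1a, and Hsp90aa1 and Hsp90ab1 are 75.7% identical.

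Per kilobase of each gene's merged annotated exons, Hsp90ab1 and Hspa8 were the most abundant of the 10 in every group. Merged exons can be longer than a single transcript, at 5776 bases for Dnaja1 against a coding sequence of 1194 bases. The order of genes with close values can depend on this choice of length. In WT-NT the order by CPM per kilobase began with Hsp90ab1 at 876 ± 137 (SD, n = 4), Hspa8 at 617 ± 71.9 and Hsp90aa1 at 225. Then came Hspb1 at 55.1, Dnaja1 at 39.1, Hsph1 at 38.2, Hsf1 at 19.6 and Dnajb1 at 15.6, with Hspa1b at 3.55 and Hspa1a at 1.76 lowest. Across libraries Hsp90ab1 and Hspa8 overlapped on this scale (692 to 983 and 528 to 700 CPM per kilobase), but within each of the 4 libraries Hsp90ab1 was above Hspa8, by 1.31 to 1.54 times. Hspb1, Dnaja1 and Hsph1 also overlapped across libraries. Within libraries Hspb1 was above Hsph1 in 4 of 4, by 1.09 to 2.05 times, whereas Dnaja1 was at 0.916 to 1.09 times Hsph1, so the order of that pair changed between libraries. In WT-GS the first places were exchanged, with Hspa8 at 1075 ± 79.8 (SD, n = 3) and Hsp90ab1 at 955 ± 74.6 CPM per kilobase, and within each of the 3 libraries Hspa8 was above Hsp90ab1, which stood at 0.853 to 0.933 of it. By plain CPM over all libraries Hsp90ab1 ranked 30th and Hspa8 36th of 24015 genes.

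**Figure D1:**
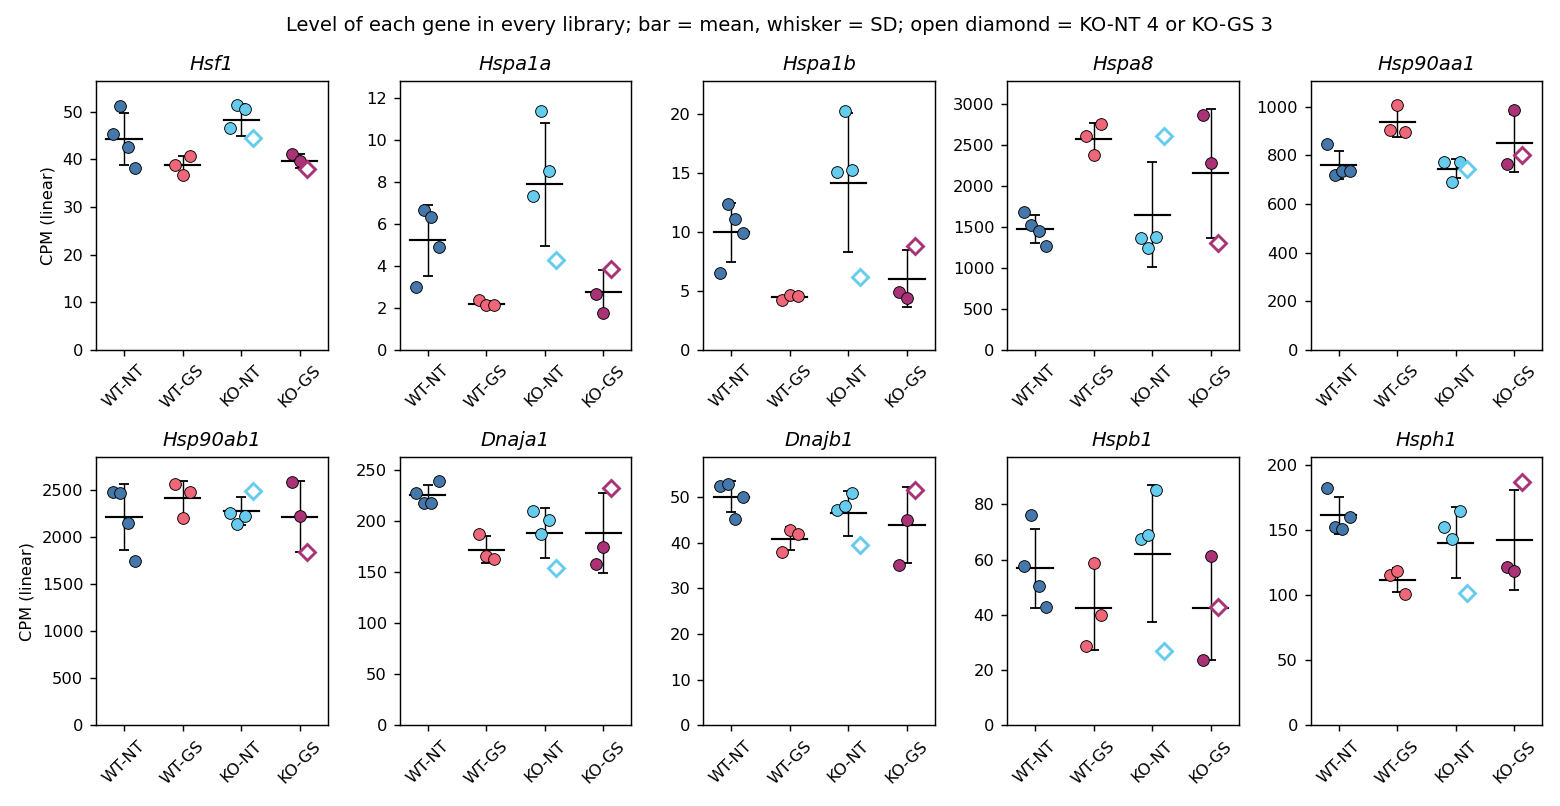
Level of each of the 10 genes in every library, as CPM on a linear axis from 0, with libraries grouped by genotype and medium; points are libraries, horizontal bars group means and whiskers SD. Hspa8 lies at 1263 to 1677 CPM in WT-NT and 2371 to 2750.1 CPM in WT-GS, and the open diamonds, KO-NT 4 and KO-GS 3, lie at 2604.5 and 1307 CPM.

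In wild-type fibroblasts 18 hours without glucose moved the Hsp70 genes in opposite directions. Hspa8 rose, Hspa1a and Hspa1b fell, Hsp90aa1 rose by a smaller step, and Hsf1, Hsp90ab1, Dnaja1, Dnajb1, Hspb1 and Hsph1 did not pass the test. By count, 2 of the 10 genes were higher and 2 lower by edgeR's quasi-likelihood test at an adjusted p under 0.05, against 25.9% of the 15666 genes tested, 12.9% higher and 13.1% lower. At an unadjusted p under 0.05 there were 6 of the 10, against 43.5% of genes. With TMM 2014 of 4063 called genes were higher, whereas scaling by library size alone gave 1496 of 3988, and under it 3 of the 10 were called, all lower. The median log2 change of the 10 was -0.30 against -0.04 over all genes tested, and nothing particular to the 10 is read from these counts.

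Hspa8 stood at 1677, 1522, 1444.5 and 1263 CPM in WT-NT 1 to 4 and at 2601, 2371 and 2750.1 CPM in WT-GS 1 to 3. Every starved library was above every unstarved one. The log2 change was 0.85 (SE 0.273, edgeR adjusted p = 0.0413), and 0.86 (SE 0.122, edgeR adjusted p = 0.000356) without KO-NT 4 and KO-GS 3, which share their spread with the wild-type groups in the fit.

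Hspa1a stood at 2.98, 6.68, 6.32 and 4.87 CPM in WT-NT 1 to 4 and at 2.35, 2.14 and 2.11 CPM in WT-GS 1 to 3. Hspa1b stood at 6.47, 12.35, 11.1 and 9.88 CPM in WT-NT 1 to 4 and at 4.22, 4.68 and 4.52 CPM in WT-GS 1 to 3. For both genes every starved library was below every unstarved one, WT-NT 1 was the lowest of its group, and the starved libraries lay close together. The log2 changes were -1.20 (SE 0.368, edgeR adjusted p = 0.0357) for Hspa1a and -1.11 (SE 0.371, edgeR adjusted p = 0.0457) for Hspa1b. Without the 2 libraries they were -1.18 (adjusted p = 0.00691) and -1.09 (adjusted p = 0.00194). These levels rest on 128 to 595 counts of Hspa1a and 280 to 1101 counts of Hspa1b per wild-type library. With both genes' counts added into 1 row, the sum was 9.45 to 19.0 CPM in WT-NT and 6.57 to 6.82 CPM in WT-GS.

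Hsp90aa1, the stress-responsive Hsp90 isoform, stood at 846, 719, 736 and 737 CPM in WT-NT 1 to 4 and at 905, 1008 and 896.5 CPM in WT-GS 1 to 3. Starved libraries were all above unstarved ones, and WT-NT 1 was the highest of its group. Its log2 change was 0.34 (SE 0.114, edgeR adjusted p = 0.0444). The constitutive isoform Hsp90ab1 stood at 2478, 2467, 2147 and 1743 CPM in WT-NT and at 2554, 2194 and 2469 CPM in WT-GS. These ranges overlap, and the log2 change was 0.17 (SE 0.152, adjusted p = 0.413).

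Dnaja1, a J-domain partner of Hsc70, stood at 228, 217.5, 218 and 239 CPM in WT-NT and at 187, 166 and 163 CPM in WT-GS. Hsph1, the Hsp110 nucleotide exchange factor, stood at 182, 152.5, 151 and 159.8 CPM in WT-NT and at 115, 118 and 101 CPM in WT-GS. In both genes the starved libraries lay below all unstarved ones. The log2 changes were -0.35 (SE 0.140, adjusted p = 0.0794) and -0.49 (SE 0.186, adjusted p = 0.0665) with all 14 libraries. Without the 2 libraries both fell, by 0.33 (SE 0.0744, edgeR adjusted p = 0.0054) and by 0.47 (SE 0.0892, edgeR adjusted p = 0.00203) on the log2 scale, so that 2 of the 10 genes were higher and 4 lower, against 39.6% of 15864 genes tested, 20.4% higher and 19.1% lower. The fit on the wild-type libraries alone gave the same counts, 2 higher and 4 lower, and called 5155 other genes.

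Dnajb1, the J-domain protein most closely tied to inducible Hsp70, stood at 52.4, 52.7, 45.2 and 49.9 CPM in WT-NT and at 37.99, 42.7 and 41.8 CPM in WT-GS. The groups did not overlap, but the log2 change of -0.25 (SE 0.135, adjusted p = 0.169) did not pass the test. Hsf1 itself, the RNA of the regulator rather than its activity, stood at 45.4, 51.1, 42.5 and 38.1 CPM in WT-NT and at 38.8, 36.6 and 40.7 CPM in WT-GS. The Hsf1 ranges overlap, with a log2 change of -0.15 (SE 0.106, adjusted p = 0.288). Hspb1, the gene of the small heat shock protein, varied within each group, at 57.7, 76.3, 50.5 and 42.7 CPM in WT-NT and 28.8, 58.9 and 40.0 CPM in WT-GS. Its log2 change was -0.38 (SE 0.404, adjusted p = 0.486). In all, 7 of the 10 genes had wild-type groups that did not overlap, against 44.6% of genes tested.

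The 4 calls with all 14 libraries lie close to the threshold and depend on single libraries. None of the 10 was called without WT-NT 2, WT-NT 3, WT-GS 1, WT-GS 2 or WT-GS 3, and 1 was called without WT-NT 1, WT-NT 4 or KO-NT 3. Without KO-NT 1, Hspa1b and Hsp90aa1 lost their calls (edgeR adjusted p = 0.0585 and 0.0591). Without KO-NT 2, Hsp90aa1 lost its call (edgeR adjusted p = 0.0514). The log2 changes of the 4 kept their direction in all of these fits. In 4 of these 5 fits with none called hardly any other gene was called either, at 0.00628% of genes when WT-GS 3 was left out and 0% for WT-NT 3, WT-GS 1 and WT-GS 2, while for WT-NT 2 it was 13.2%. In those 5 fits 4 to 6 of the 10 had an unadjusted p under 0.05 by edgeR, as had 33.3% to 40.3% of all genes. Over all genes 8.77% were called without WT-NT 1, 31.1% without WT-NT 4 and 21.3% without KO-NT 3. In the fit without KO-NT 4 and KO-GS 3, Hsp90aa1 lost its call when WT-NT 3 was also left out (edgeR adjusted p = 0.0601). So it did for WT-GS 1 (0.0653), WT-GS 2 (0.0964) or WT-GS 3 (0.07). With 1 further library left out, log2 changes ran from 0.78 to 0.92 for Hspa8 and 0.30 to 0.41 for Hsp90aa1. They ran from -1.39 to -1.03 for Hspa1a and -1.27 to -0.96 for Hspa1b. In bulk RNA fewer cells of a type and less RNA per cell cannot be told apart. Of the fibroblast markers, 8 of 10 fell in wild-type cells without glucose. This and the marker counts that follow are to be read against all genes tested in that fit, 13.1% lower and 12.9% higher. No cell content is read from them. Macrophage markers, of which 3 of 10 fell, summed to 121 to 877 CPM over 10 genes in WT-NT and 7.34 to 96.3 CPM in WT-GS, with at most 1 of them at 0 in a library, while those of skeletal muscle summed to 82.1 to 142 and 95.3 to 248 CPM, with up to 4 of 10 at 0. Of the 8 muscle markers tested 2 fell and Acta1 rose, and their median log2 change was -2.57. Over all libraries 6 epithelial markers summed to 4.34 to 12.6 CPM and 5 endothelial markers to 6.08 to 22.04 CPM. The part of other cell types in the changes of the heat shock genes was not tested.

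**Figure D2:**
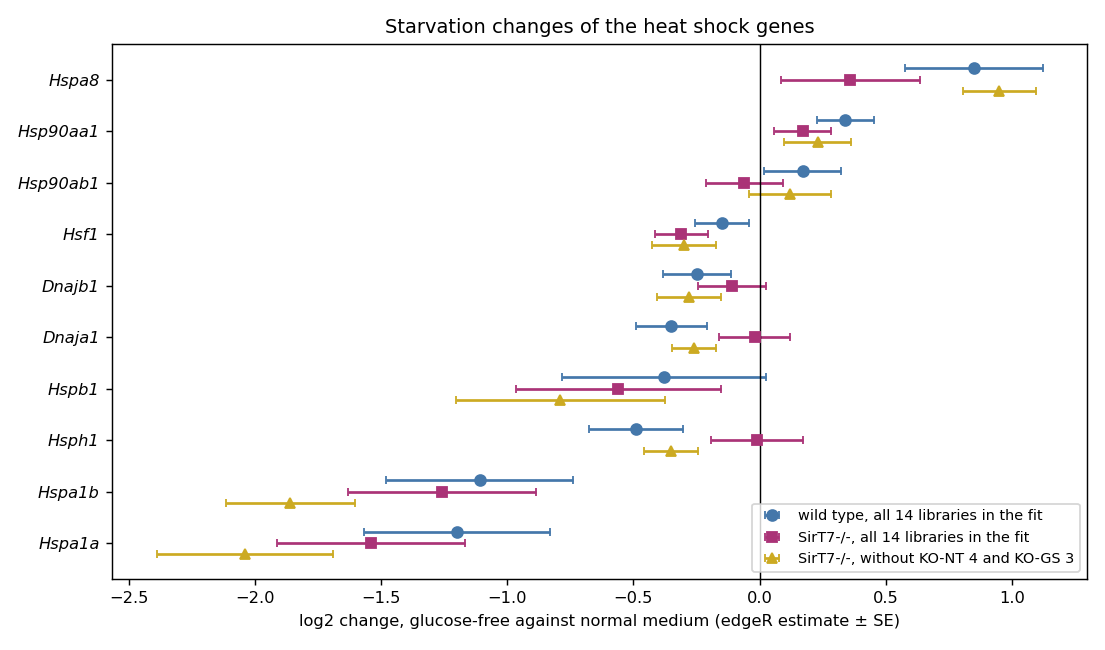
Log2 change without glucose against normal medium for the 10 genes (edgeR estimate, bars ± SE), in wild type with all 14 libraries in the fit and in SirT7-/- with and without KO-NT 4 and KO-GS 3. Hspa8 lies at 0.85 in wild type and at 0.36 or 0.95 in SirT7-/-, while Hspa1a and Hspa1b lie furthest to the left in each.

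In SirT7-/- fibroblasts the outcome turned on the 2 libraries. With groups as labelled, none of the 10 genes was called by edgeR, which called 0% of all genes in this comparison. Hsf1, Hspa1a and Hspa1b had an unadjusted p under 0.05, against 18.6% of genes, and DESeq2 called Hspa1a and Hspa1b, both lower, against 1.63% of genes by that tool. Without KO-NT 4 and KO-GS 3, Hspa8 rose and Hspa1a, Hspa1b, Dnaja1 and Hsph1 fell, 1 higher and 4 lower of 10, against 33.1% of 15864 genes tested, 18.6% higher and 14.5% lower. The median log2 change over the 10 genes was -0.29, against 0.03 over all genes. This fit holds only 3 KO-NT and 2 KO-GS libraries. The 2 left out were picked after seeing that their expression went against their medium labels. Its p-values for the medium in SirT7-/- cells can therefore be too small.

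Hspa8 stood at 1358.5, 1242.5, 1379 and 2604.5 CPM in KO-NT 1 to 4 and at 2866, 2277.5 and 1307 CPM in KO-GS 1 to 3. KO-NT 4 lay with the starved libraries and KO-GS 3 with the unstarved ones, and the remaining 5 did not overlap. The log2 change was 0.36 (SE 0.274, edgeR adjusted p = 0.459) as labelled and 0.95 (SE 0.145, edgeR adjusted p = 0.000855) without the 2.

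Hspa1a stood at 7.33, 11.4, 8.51 and 4.27 CPM in KO-NT 1 to 4 and at 2.64, 1.77 and 3.85 CPM in KO-GS 1 to 3. Hspa1b stood at 15.0, 20.25, 15.2 and 6.15 CPM in KO-NT 1 to 4 and at 4.92, 4.35 and 8.82 CPM in KO-GS 1 to 3. KO-NT 4 was the lowest of its group and KO-GS 3 the highest of its own for both genes, although Hspa1a still did not overlap between the labelled groups. The log2 change of Hspa1a was -1.54 (SE 0.372, edgeR adjusted p = 0.227) as labelled and -2.04 (SE 0.349, edgeR adjusted p = 0.00162) without the 2. That of Hspa1b was -1.26 (SE 0.372, edgeR adjusted p = 0.227) and -1.86 (SE 0.255, edgeR adjusted p = 0.000481).

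Dnaja1 stood at 210, 188, 201 and 154 CPM in KO-NT and at 158, 175 and 232 CPM in KO-GS. Hsph1 stood at 151.8, 143, 164.5 and 102 CPM in KO-NT and at 121, 118.5 and 186.5 CPM in KO-GS. In both, the last library of each group lay on the far side of the other group. Without them the log2 changes were -0.26 (SE 0.0889, edgeR adjusted p = 0.0434) for Dnaja1 and -0.35 (SE 0.107, edgeR adjusted p = 0.0265) for Hsph1, and as labelled they were -0.02 (adjusted p = 0.935) and -0.01 (adjusted p = 0.987).

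The other 5 genes were not called by edgeR in SirT7-/- cells in either fit. DESeq2 called Hsf1 without the 2 libraries (log2 change -0.32, adjusted p = 0.0397), where it called 38.8% of all genes. Hsp90aa1 stood at 774, 692, 771 and 746 CPM in KO-NT and at 765, 987.5 and 800.3 CPM in KO-GS, which overlap, with a log2 change of 0.17 (adjusted p = 0.411) as labelled and 0.23 (SE 0.134, adjusted p = 0.204) without the 2. Hsp90ab1 stood at 2252, 2133, 2218 and 2481 CPM in KO-NT and at 2582, 2219 and 1837.5 CPM in KO-GS. Its log2 change was -0.06 as labelled and 0.12 without the 2. Hsf1 stood at 46.5, 51.5, 50.5 and 44.6 CPM in KO-NT and at 41.0, 39.6 and 38.05 CPM in KO-GS, without overlap, with a log2 change of -0.31 (adjusted p = 0.227) as labelled and -0.30 (SE 0.127, edgeR adjusted p = 0.0946) without the 2. Dnajb1 stood at 47.2, 48.0, 50.8 and 39.5 CPM in KO-NT and at 35.03, 44.9 and 51.5 CPM in KO-GS, with log2 changes of -0.11 (adjusted p = 0.666) as labelled and -0.28 (adjusted p = 0.107) without the 2. Hspb1 again varied within groups, at 67.4, 69.0, 85.1 and 26.9 CPM in KO-NT and at 23.6, 61.4 and 43.0 CPM in KO-GS, with log2 changes of -0.56 (adjusted p = 0.436) and -0.79 (adjusted p = 0.168). The labelled groups did not overlap for 2 of the 10 genes, against 12.4% of all genes, and for 8 of the 10 without the 2 libraries, against 63.5%. Leaving out KO-NT 1 or KO-NT 3 from the fit without the 2 as well, Hspa8, Hspa1a and Hspa1b kept their calls. Dnaja1 lost its call (edgeR adjusted p = 0.123 and 0.0908), as did Hsph1 (0.0536 and 0.0627). Without WT-NT 3, Dnaja1 lost it too (edgeR adjusted p = 0.0538). With replicate number added as a block to the fit without the 2, Dnaja1 also lost its call (edgeR adjusted p = 0.0644). That block called Hspb1 lower (log2 change -0.96, edgeR adjusted p = 0.0458). A fit without KO-GS 1 or KO-GS 2 leaves 1 KO-GS library, so calls from it are not listed. With 1 further library left out, log2 changes ran from 0.78 to 1.04 for Hspa8. They ran from -2.35 to -1.85 for Hspa1a, -1.95 to -1.74 for Hspa1b, -0.41 to -0.18 for Dnaja1 and -0.43 to -0.31 for Hsph1.

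The balance of constitutive Hsp70 to constitutive Hsp90 RNA differed between media in wild-type cells without overlap. Taken as the ratio of Hspa8 to Hsp90ab1 CPM within a library, it was 0.617 to 0.725 in WT-NT and 1.02 to 1.11 in WT-GS. It was 0.583 to 0.622 in KO-NT 1 to 3 and 1.11 and 1.03 in KO-GS 1 and 2, with KO-NT 4 at 1.05 and KO-GS 3 at 0.711. Together the 10 genes made up 0.429 to 0.557% of all counts in WT-NT and 0.600 to 0.651% in WT-GS. Without Hspa8 the share was 0.302 to 0.390% and 0.363 to 0.387%, which overlap.

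**Figure D3:**
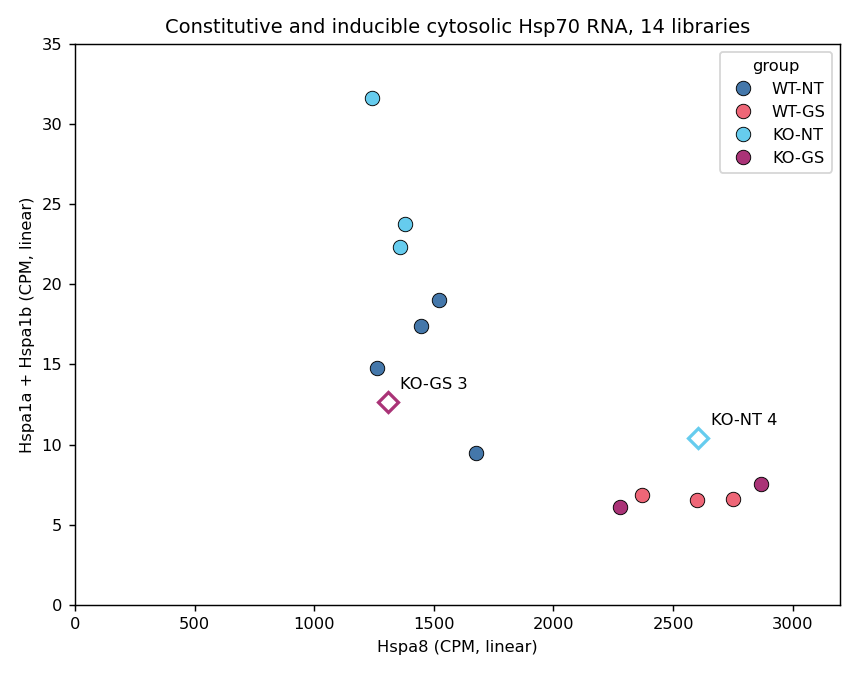
Constitutive Hsp70 RNA (Hspa8 CPM, x axis) against the summed RNA of the inducible genes (Hspa1a + Hspa1b CPM, y axis) in each of the 14 libraries, both axes linear from 0. The WT-GS libraries and KO-GS 1 and 2 lie at the lower right, with sums of 6.12 to 7.56 CPM, and the open diamonds mark KO-NT 4 (10.4 CPM) and KO-GS 3 (12.7 CPM).

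Across the 14 libraries Hspa8 ran opposite to several of the other genes, given here as a description over libraries that share medium and genotype. On log2 CPM, Pearson's r of Hspa8 was -0.88 with Hspa1b, -0.86 with Hsph1, -0.85 with Dnajb1 and -0.84 with Dnaja1. With Hsp90ab1 and Hsp90aa1 the r of Hspa8 was positive, at 0.68 and 0.58. Some pairs were only weakly related, such as Hsp90aa1 with Hspb1 (-0.05) and Hsf1 with Dnaja1 (0.15). A split of all the genes into opposed sets is therefore not read from these values. The highest values between members were 0.97 for Hspa1a with Hspa1b, whose reads may have been assigned to either gene, and 0.90 for Dnaja1 with Hsph1. Among the 10693 other tested genes with a mean of at least 5 CPM (10694 for Hspa1a), the closest to Hspa8 were Cnih4 (r = 0.99), Tbpl1 (0.99) and Eif4b (0.99). Hspa1a and Hspa1b were each most like Erf (0.98 for both). Hspb1 was most like the smooth muscle contractile genes Acta2 (0.97), Tpm2 (0.96) and Cnn1 (0.96). Hsf1 was most like Pold2 (0.98), Dnaja1 most like Vps45 (0.98), Hsph1 most like Zfp207 (0.97), Dnajb1 most like Actr1a (0.96), Hsp90ab1 most like Naca (0.96) and Hsp90aa1 most like Cirh1a (0.94).

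By edgeR, loss of SirT7 gave no called change in the 10 genes in either medium, while DESeq2 called Hspa1b in normal medium in the fit without the 2 libraries. In normal medium edgeR called none of the 10 with all 14 libraries, against 0.00638% of genes tested, which is 1 gene. None of the 10 had an unadjusted p under 0.05, against 4.2% of genes, and DESeq2 called none of the 10 and 23 of all genes. The log2 differences of Hspa1a and Hspa1b were 0.63 and 0.54 as labelled. Dnaja1 alone had groups that did not overlap, lower in KO-NT, against 3.27% of genes tested. Without KO-NT 4 and KO-GS 3, the inducible Hsp70 genes had the largest log2 differences of the 10. Hspa1a averaged 9.07 CPM in KO-NT 1 to 3 against 5.21 ± 1.68 CPM (SD, n = 4) in WT-NT, with all 3 KO-NT libraries above all 4 WT-NT libraries. Hspa1b averaged 16.8 CPM against 9.95 ± 2.53 CPM (SD, n = 4), again without overlap. The log2 differences were 0.83 (SE 0.267, edgeR adjusted p = 0.553) and 0.79 (SE 0.197, edgeR adjusted p = 0.466), so neither was called by edgeR, while both had an unadjusted p under 0.05, at 0.0105 and 0.00224, as had 7.92% of genes tested. DESeq2 called 1 of them in that fit, Hspa1b (adjusted p = 0.0335), against 0.769% of genes by that tool. In it the groups of 3 of the 10 genes did not overlap, against 9.68% of genes tested, and edgeR called 0.0252% of genes. KO-NT 4, the lowest KO-NT library for Hspa1a and Hspa1b, was left out after seeing the data. The p-values of that fit for genotype can therefore be too small as well, and the lack of overlap rests on that choice.

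In glucose-free medium edgeR called none of the 10, against 0.00638% of genes tested with all libraries and 0.0063% without the 2. None had an unadjusted p under 0.05 in either fit, against 3.88% and 2.19% of genes, and DESeq2 called none in either. As labelled the log2 differences were 0.28 for Hspa1a and 0.39 for Hspa1b. Without the 2 libraries they were -0.03 and 0.01, and the starved means of the inducible genes lay close together. Hspa1a was at 2.20 ± 0.128 CPM (SD, n = 3) in WT-GS and 2.21 CPM in KO-GS 1 and 2, and Hspa1b at 4.47 ± 0.234 CPM (SD, n = 3) and 4.64 CPM. Hsph1 alone had starved groups that did not overlap, higher in KO-GS, against 10.8% of genes tested, and against 16.5% without the 2. The nearest libraries were almost level, KO-GS 2 at 118.5 and WT-GS 2 at 118.2 CPM. Its log2 difference was 0.31 (SE 0.197, edgeR adjusted p = 0.893) as labelled and 0.07 (SE 0.105) without the 2.

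The difference between the genotypes' responses to starvation was called for none of the 10 genes by edgeR, which called 0% of genes tested, or by DESeq2, and none had an unadjusted p under 0.05 with all 14 libraries, against 6.06% of genes. Without the 2 libraries 1 of the 10 had, against 3.3% of genes. Hspa1b had a log2 difference of -0.15 (SE 0.510, adjusted p = 0.93) as labelled and -0.77 (SE 0.313, adjusted p = 1, unadjusted p = 0.032) without the 2 libraries. That of Hspa1a was -0.34 (SE 0.504) and -0.86 (SE 0.426), and that of Hspa8 -0.48 (SE 0.389) and 0.09 (SE 0.191). The larger fall of the inducible Hsp70 genes in SirT7-/- cells is therefore not shown to differ from that in wild type by this test.

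The wider cytosolic folding machinery was read through 8 lists of other genes that work with these 10, together 65 genes, of which 63 were tested. In wild-type cells 12 were higher and 7 lower without glucose, with a median log2 change of 0.04, and without KO-NT 4 and KO-GS 3 the counts were 17 and 9. In SirT7-/- cells none was called as labelled, and 11 were higher and 6 lower without the 2. These counts are to be read against the 25.9%, 39.6% and 33.1% of all genes called in the same fits, and nothing particular to the lists is read from them.

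Among the heat shock factors, Hsf2, a second factor that can bind the same elements, rose. Its level was 18.3 to 21.8 CPM in WT-NT and 28.4 to 29.2 CPM in WT-GS, a log2 change of 0.56 (SE 0.145, edgeR adjusted p = 0.0248). It was 16.8 to 18.5 CPM in KO-NT 1 to 3 and 29.5 and 31.7 CPM in KO-GS 1 and 2, with KO-NT 4 at 23.9 and KO-GS 3 at 20.9 CPM. Hsf2 was the 1 gene called of 4 tested in its list. Of the 7 other cytosolic Hsp70 and Hsp110 genes, the Hsp110 relative Hspa4l rose, at 22.5 to 35.2 CPM in WT-NT and 44.0 to 52.1 CPM in WT-GS (log2 change 0.83, SE 0.189, edgeR adjusted p = 0.0246). Hspa12a and Hspa12b fell, with log2 changes of -0.57 and -0.50, and the list's median was -0.14.

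Of 10 other J-domain genes Dnajc21 and Dnaja2 rose, with log2 changes of 0.54 and 0.22, and Dnajc7 fell, with -0.49. None of the 5 other small heat shock genes tested was called by edgeR in wild-type cells, and 1 had an unadjusted p under 0.05. Cryab, the lens and muscle crystallin, was not called (log2 change 0.27, SE 0.341, adjusted p = 0.561). Among 6 nucleotide exchange factors of Hsp70, Bag1 rose, at 122 to 133 CPM in WT-NT and 158 to 175 CPM in WT-GS (log2 change 0.43, SE 0.0848, edgeR adjusted p = 0.0246), Bag4 rose (0.34) and Hspbp1 fell (-0.67). Bag3, which is itself induced by HSF1, was at 78.8 to 87.0 CPM in WT-NT and 58.2 to 70.2 CPM in WT-GS, without overlap, a log2 change of -0.34 (SE 0.140, adjusted p = 0.0838) with all libraries and -0.32 (edgeR adjusted p = 0.00919) without the 2.

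Of 17 Hsp90 co-chaperones 2 rose and 3 fell in wild-type cells. Fkbp4, the immunophilin that carries steroid receptors with Hsp90, fell, at 93.9 to 173 CPM in WT-NT and 60.6 to 67.1 CPM in WT-GS (log2 change -1.11, SE 0.281, edgeR adjusted p = 0.0246). Its relative Fkbp5 (log2 change -0.87) and the myosin chaperone gene Unc45a (-0.67) fell, and Chordc1 (0.40) and Cdc37l1 (0.41) rose. In SirT7-/- cells without the 2 libraries, Fkbp4 (-1.05), Fkbp5 (-0.89) and Unc45a (-0.95) fell, and Chordc1 (0.48) and Cdc37l1 (0.49) rose.

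In the complexes that fold newly made protein 4 of 14 subunits were called in wild-type cells, against 25.9% of all genes. Of 8 subunits of the TRiC chaperonin, which folds actin and tubulin, Cct2 (log2 change 0.66) and Cct4 (0.58) rose and 6 were not called. Of 6 subunits of prefoldin, which hands clients to TRiC, Pfdn4 (0.94) and Vbp1 (0.82) rose and 4 were not called. Vbp1 was at 50.5 to 56.1 CPM in WT-NT and 86.4 to 93.9 CPM in WT-GS. The list medians were 0.17 and 0.27, against -0.04 over all genes tested.

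**Figure D4:**
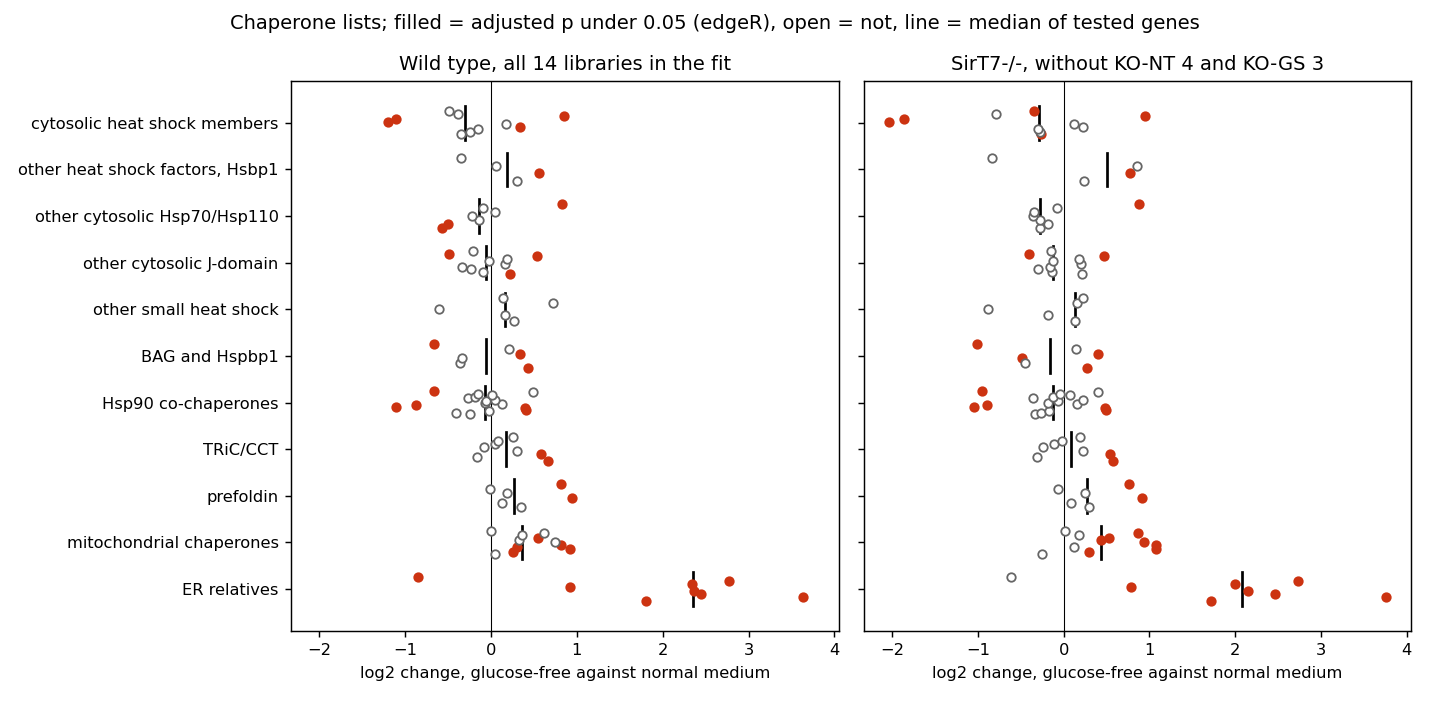
Log2 change without glucose against normal medium for each tested gene of the cytosolic, mitochondrial and endoplasmic reticulum lists, in wild type with all 14 libraries (left) and in SirT7-/- without KO-NT 4 and KO-GS 3 (right); filled points passed an adjusted p of 0.05 by edgeR, and black lines are list medians. The 10 heat shock genes centre on -0.30 and -0.29, and the endoplasmic reticulum relatives on 2.35 and 2.08.

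Relatives of these genes in other compartments were read in the same libraries. Hspa5, the Hsp70 of the endoplasmic reticulum, rose, at 1064.5 to 1479 CPM in WT-NT and 6206 to 7435 CPM in WT-GS (log2 change 2.34, SE 0.592, edgeR adjusted p = 0.0246), and Hsp90b1 rose likewise (2.36). Of 8 such relatives 7 rose in wild-type cells, and Serpinh1, a collagen chaperone, fell (-0.85). Over all genes tested in that fit 12.9% were higher and 13.1% lower. The ratio of Hspa5 to Hspa8 CPM was 0.843 to 1.01 in WT-NT and 2.26 to 2.86 in WT-GS. Of 11 mitochondrial chaperones 5 were higher and none lower in wild-type cells, against the same shares, with a median log2 change of 0.36. In SirT7-/- cells as labelled none of either list was called, against 0% of all genes. Without KO-NT 4 and KO-GS 3, 7 of 8 endoplasmic reticulum relatives and 7 of 11 mitochondrial chaperones were higher, against 18.6% of genes. Hspd1, the mitochondrial chaperonin, rose, at 448 to 583 CPM in WT-NT and 717 to 734 CPM in WT-GS (log2 change 0.55, SE 0.158, edgeR adjusted p = 0.0301). Hspa9, the mitochondrial Hsp70, had a log2 change of 0.33 (adjusted p = 0.068), Hspe1 of 0.36 (adjusted p = 0.121) and the Hsp90 relative Trap1 of 0.00 (adjusted p = 0.991).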

How the data were processed

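The authors deposited 1 table of estimated counts, given as integers, with 14 library columns. The submitters' processing notes name the tools HISAT2 2.1.0, StringTie 1.3.3, SAMtools, Trimmomatic 0.36, FastQC 0.11.3 and DESeq2 1.18.1, and build mm9. The annotation and strand setting are not given in the sources used here. Of 24015 symbols, 4225 were at 0 throughout and 27 were dates. CPM is counts scaled to the library total.

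Tests used edgeR 4.0.16 in R 4.3.3 (quasi-likelihood, robust, TMM, filterByExpr with minimum count 10 and total 15, 1 mean per group, Benjamini-Hochberg over 15666 genes). Calls are adjusted p under 0.05. SE was worked back from the F-test. The fit was run on simulated counts with 200 genes changed in WT-GS, a fixed spread and no library against its label. These settings differ from the data, so that run checks the code only. Alternatives were RLE, library size alone, DESeq2 1.42.0, no filter, only the groups compared, a replicate block, Hspa1a and Hspa1b summed, and leaving out single libraries. Leaving out KO-NT 4 and KO-GS 3 (15864 genes tested) was added after seeing the data.

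Named genes are the 10 members, from each list up to 4 genes with the smallest p and any called gene where 5 or fewer were called, counterparts in other compartments, and the 3 genes most like each member (r of log2 CPM, prior count 2, mean of at least 5 CPM). Members and lists were chosen with earlier results of these data known. Lengths are of a gene's merged exons and, like the coding sequences, are from GENCODE vM21 (GRCm38). No samples were unassigned. Whether same-numbered libraries are paired could not be settled.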

Additional observations from a re-analysis of the deposited data

Results flagged for a closer look

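In KO-NT, the Hspa8 level of the library labelled KO-NT 4, 2604.5 CPM, lay far from the other 3 (1242.5 to 1379 CPM), with a gap of 0.8997 of the group's range, beyond the 95% limit of Dixon's test for 4 samples. In WT-NT, the Hsp90aa1 level of WT-NT 1, 846 CPM, lay above the other 3 (719 to 737 CPM), with a gap of 0.8532 of the range. Chance marks about 1 in 20 groups in this way.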

How the results depend on the processing

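With all 14 libraries, 4 of the 10 genes were called for wild-type starvation, against 25.9% of all genes. With no filter on low counts 1 was called, and the counts over all genes are given below. Calls lost when single libraries were left out are named above. Dnaja1 and Hsph1 gained calls without KO-NT 4 (edgeR adjusted p = 0.0409 and 0.0257) or KO-GS 3 (0.0402 and 0.0312). Pairing of libraries by replicate number did not pass the rule used (in no pair of groups were all 3 correlations of same-numbered libraries above 0.1). The rule cannot exclude pairing. Between WT-GS and KO-GS the 3 correlations were 0.299, 0.459 and 0.0364, and 4 of 6 libraries correlated best with their own number. With the replicate block 4 were called in wild type (1 higher, 3 lower) and 3 in SirT7-/- cells, where all genes went from 0 to 3096. In wild type 4 of 6 libraries, and in SirT7-/- cells 2 of 6, correlated best with their own number in the other medium. For SirT7-/- starvation 0 were called, against 0% of all genes, and 2 by DESeq2, against 1.63%. Without KO-NT 4 and KO-GS 3 there were 5, against 33.1%. Without KO-NT 4 alone Hsf1, Hspa1a and Hspa1b were called (edgeR adjusted p = 0.0381, 0.0171 and 0.0171). The share of all genes is not given for that fit, so nothing particular to the 10 is read from it. With any other single library left out none was called. For the fit without the 2 libraries, calls lost when 1 further library was left out are named above. In that fit the replicate block lost Hsp90aa1 in wild type (edgeR adjusted p = 0.0715). DESeq2 called 1 there for genotype in normal medium, against 0 by edgeR and 0.769% of all genes by DESeq2. For SirT7-/- starvation DESeq2 called 6, with Hsf1 added, against 38.8% of all genes. The block on all 14 libraries also called Hsf1 (edgeR adjusted p = 0.0207). Over all genes in wild type, 3369 were called with no filter and 6633 with the block, against 4063. No called change of a gene turned its sign under any of these settings: 45 values under other settings stayed called and 8 did not, and 144 and 44 with single libraries left out. Signs that turned belonged to values that were not called, of which some were not small: the genotype difference in response of Hspa8 (-0.48 with all 14 libraries), that of Hspb1 (-0.43 without the 2) and the genotype difference of Hspa1a without glucose (0.28). For SirT7-/- starvation, Hsph1 was at 0 by RLE, by DESeq2 and on the groups compared only and 0.02 by library size, Dnaja1 at 0 by library size, and Hsp90ab1 at 0.12 without the 2. For genotype in normal medium, Hsp90aa1 was at -0.01 by RLE and DESeq2, -0.03 by library size and 0 on the groups only, and Hspa8 at -0.13 without the 2. For genotype without glucose, library size gave Hsf1 0.03 and Hspb1 0, and the fit without the 2 gave Hsf1 0.02, Hspa1a -0.03, Dnaja1 -0.08 and Dnajb1 -0.06. For the difference in response it gave Hspa8 0.09 and Dnajb1 -0.05. The replicate block in that fit gave -0.03 (Hsp90aa1) and -0.09 (Hsp90ab1) for genotype in normal medium, 0.02 (Hspa1a) without glucose and 0.04 (Hsp90ab1) for the difference in response. The cause of these changes was not tested.

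Leaving out single libraries from the fit on all 14 turned the sign of these values, none of them called: SirT7-/- starvation, Hsph1 -0.24 to 0.11, Dnaja1 -0.19 to 0.11, Dnajb1 -0.23 to 0.05, Hsp90ab1 -0.16 to 0.06; genotype in normal medium, Hsp90aa1 -0.02 to 0.05, Hsp90ab1 -0.04 to 0.13, Hspb1 -0.04 to 0.42, Hspa8 -0.12 to 0.29; genotype without glucose, Hspb1 -0.4 to 0.27, Hsf1 -0.06 to 0.04, Hspa1a -0.04 to 0.51, Dnaja1 -0.09 to 0.2, Dnajb1 -0.07 to 0.2; the genotype difference in response, Hspa1b -0.53 to 0.08, Hspb1 -0.56 to 0.11. In the fit without the 2 libraries it turned these: SirT7-/- starvation, Hsp90aa1 -0.04 to 0.41; genotype in normal medium, Dnajb1 -0.06 to 0.02, Hsph1 -0.11 to 0.03, Hsp90aa1 -0.03 to 0.07, Hsp90ab1 -0.09 to 0.09; genotype without glucose, Hspa1a -0.33 to 0.18, Hspa1b -0.06 to 0.05, Hsf1 -0.03 to 0.06, Hspb1 -0.93 to 0.51, Hspa8 -0.2 to 0.07, Hsp90aa1 -0.38 to 0.06, Dnaja1 -0.21 to 0, Dnajb1 -0.3 to 0.11, Hsp90ab1 -0.14 to 0.02; the genotype difference in response, Hsp90ab1 -0.16 to 0.05, Hspa8 -0.07 to 0.19, Hsp90aa1 -0.38 to 0.05, Dnajb1 -0.3 to 0.13, Hspb1 -1.34 to 0.11, Dnaja1 -0.06 to 0.15.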
